A study of Homo sapiens with 5 samples.

Results

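The genes described here encode histones, the proteins around which DNA is wrapped. They are the rows of the deposited gene table whose symbol begins with H1-, H2A, H2B, H3-, H3C, H4C or H4-, or is an older symbol of the H1 family, without antisense and pseudogene rows. The rule found 49 of the 12474 genes in the table. Of these, 41 are replication-dependent genes of the histone clusters, with 6 for H1, 11 for H2A, 12 for H2B, 7 for H3 and 5 for H4. The other 8 encode histone variants, among them H1-10, H2AJ, H2AX, H2AZ1, H2AZ2, H3-3A and H3-3B. H2AW and H2BU1, which lie side by side on chromosome 1 and carry variant-like symbols, were counted with the cluster genes.

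The data are single-cell RNA-seq libraries of MDA-MB-468, a triple-negative breast cancer cell line with amplified EGFR that had been transduced with an expressed lineage barcode. By their labels, untreated cells of day 0 (D0) gave 2 libraries, replicates 1 and 2, and 3 more libraries held cells kept in 250 nM afatinib, which blocks the EGFR and ERBB2 kinases irreversibly, over 3, 6 or 9 days (D3, D6 and D9). Each treated day had 1 library, and all cells came from the same barcoded population of 1 line. Per the study's methods, cryopreserved cells were thawed before capture. The methods also state that D0 cells came from 2 captures run on different flow cells. Nothing in the labels says that replicates 1 and 2 were separate cultures, so p-values here rest on a spread between samples that may be technical.

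The libraries held 478 and 1063 untreated cells and 479, 942 and 1139 cells of D3, D6 and D9, with summed counts of 14517579 to 28148379. Mitochondrially encoded genes took 17.2% and 15.995% of the counts at D3 and D6 and 7.25% to 8.82% in the other 3 libraries. All 8 epithelial markers checked were measured, with summed levels of 5362 to 8093 counts per 1000000 counts (CPM) per library. Of 12 markers of immune, endothelial and stromal cells, 2 were in the table, at a summed 2.22 to 8.48 CPM. D3 and D6 shared 1 cell barcode. The deposited counts had been adjusted for batch by the authors, and such an adjustment brings the D0 libraries closer to each other, so p-values resting on their spread may be too small.

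Histones H2A, H2B, H3 and H4 form the core of the nucleosome, and linker histone H1 binds where DNA enters and leaves it. Cluster genes are transcribed in S phase, when new DNA needs packaging, and most of their mRNAs end in a short stem-loop in place of a poly(A) tail. The stem-loop is bound by SLBP and the mRNAs are degraded when replication ends. Variant histones such as H3.3 and H2A.Z are made outside S phase as well, from ordinary polyadenylated mRNAs. The libraries were made from poly(A)-primed cDNA, so counts of cluster genes come from whichever of their RNAs the primer could reach, and levels of cluster genes and variants cannot be set against each other as amounts of mRNA. Each molecule is counted once at its 3′ end, so levels were not divided by length.

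The stem-loop is shown first, because it separates the 2 classes. Using GENCODE release 44 on GRCh38, the sense strand after each gene's stop codon was searched for the 16-base stem-loop pattern within 150 bases. It was found in 41 of 41 cluster genes, in 1 of 8 variants (H2AX) and in 73 of 19950 protein-coding genes (0.366%). The sequences below are those of the cluster gene with the highest level (H4C3), of genes with large S phase differences (H3C2, H2AC16 and H1-1), of a gene that was lower in S phase (H2AC6) and of H2AX. Capitals mark the stem-loop, and lower case the 5 bases on each side.
H4C3: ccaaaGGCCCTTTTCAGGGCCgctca
H3C2: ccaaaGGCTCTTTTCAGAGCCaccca
H2AC16: acaacGGCTCTTTTCAGAGCCaccta
H1-1: ccaacGGCTCTTTTAAGAGCCaccta
H2AC6: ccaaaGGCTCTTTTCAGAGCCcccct
H2AX: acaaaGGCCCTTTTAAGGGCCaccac

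In the order printed, they lie at chr6:26104312-26104337 (plus strand), chr6:26031592-26031617 (minus), chr6:27865773-27865798 (plus), chr6:26017032-26017057 (minus), chr6:26124664-26124689 (plus) and chr11:119094893-119094918 (minus). The H4C3 stem-loop begins 58 bases after the stop codon and that of H2AX 50 bases after it. Of the cluster genes, 34 lie on chromosome 6 between 26017032 and 27893891, and 7 lie on chromosome 1. The 8 variants lie on 8 different chromosomes. In 9 of the 41 cluster genes a coding transcript is annotated that runs on for more than 100 bases past the stop codon, beyond the stem-loop. For H2AC6 that transcript ends 14459 bases past the stop codon and for H2BC5 12799 bases past it. In the other 32 no annotated coding transcript ran that far.

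Promoters were searched for 3 motifs. RefSeq promoters (build GRCh38.p14, 250 bases before to 50 after the start) matched 43 of the 49 genes, 36 of them cluster genes. On either strand, CCAAT was in 32 of 36 cluster promoters (88.9%), against 34.6% of all 35116 promoters, and TATAAA was in 19 (52.8%), against 11.5%. The octamer ATTTGCAT was in 18 (50%), against 1.77%, and was concentrated by family, in 8 of 9 H2A and 9 of 11 H2B promoters but 0 of 6 H1 and 0 of 4 H4 promoters. Neighbouring promoters on opposite strands can overlap, as those of H2BC4 and H2AC6 do, and 1 octamer was then counted for both genes. The octamer of H3C4 is likewise that of H2BC7. These promoters are thus not all separate stretches of DNA. None of the 3 motifs was in the H4 promoters searched, those of H4C5, H4C8, H4C14 and H4C15, of which H4C14 and H4C15 have the same sequence. H4C3 had no promoter entry and was not searched. Among the 7 variant promoters, CCAAT was in 6, TATAAA in 4 and the octamer in 1. The 250 bases before the start of H3C2 and H2AC16, the core genes with the largest S phase differences among members of at least 5 CPM, are printed with these motifs in capitals (ATTGG and ATGCAAAT are the reverse strand). A match is a description of the letters and not of a bound site.
H3C2: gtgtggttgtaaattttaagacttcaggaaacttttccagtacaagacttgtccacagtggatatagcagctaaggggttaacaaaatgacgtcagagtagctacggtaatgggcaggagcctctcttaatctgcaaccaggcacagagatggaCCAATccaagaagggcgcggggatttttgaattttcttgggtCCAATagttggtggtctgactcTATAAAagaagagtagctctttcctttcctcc
H2AC16: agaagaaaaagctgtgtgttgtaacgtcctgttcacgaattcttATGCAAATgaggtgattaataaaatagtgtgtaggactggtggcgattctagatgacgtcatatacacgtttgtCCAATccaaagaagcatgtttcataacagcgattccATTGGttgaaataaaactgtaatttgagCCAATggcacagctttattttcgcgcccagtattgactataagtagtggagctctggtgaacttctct

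The H3C2 window is chr6:26032100-26032349 on the minus strand and the H2AC16 window is chr6:27865067-27865316 on the plus strand.

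The first question was whether histone genes differed between afatinib and untreated cells, taking the 3 treated days as replicates of treatment. In edgeR's quasi-likelihood test on counts summed per library, with Benjamini-Hochberg adjusted p under 0.05 over 12145 genes, 7 of the 40 cluster genes tested were called lower in treated cells, where 10.1% of all genes were, and 0 were called higher, where 13.1% of all genes were. None of the 40 was higher at an unadjusted p under 0.05 either, by edgeR, and none of 41 by DESeq2, while 18 were lower at an unadjusted p under 0.05 by edgeR. The median log2 fold change was −0.84 over the cluster genes and 0.05 over all genes. Of the 8 variants, 1 was called lower (H2AJ) and 0 higher (0 also at an unadjusted p under 0.05 by edgeR and by DESeq2), with a median of −0.03. The cluster gene that did not pass the filter on low counts was H1-6, the testis linker histone, with 0 counts in both untreated libraries and 6, 1 and 1 counts in D3, D6 and D9.

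H4C3 encodes histone H4 and gave 76.2% and 76.3% of the cluster counts in the untreated libraries and 63.6%, 65.1% and 41.8% on D3, D6 and D9. Its level was 2701 and 2759 CPM in the untreated pair and 1249, 1041 and 358 CPM on D3, D6 and D9. Every treated library was below both untreated ones, and D9 was far below D3 and D6. The log2 fold change was −1.77 ± 0.45 (SE, adjusted p = 0.0291 by edgeR), a 3.42-fold difference.

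Among the H1 genes, H1-1 stood at 180 and 181 CPM untreated and at 112, 84.7 and 143 CPM on D3, D6 and D9. H1-5 stood at 67.3 and 72.1 CPM untreated and at 44.2, 35.2 and 57.5 CPM by day. H1-3 stood at 55.1 and 48.8 CPM untreated and at 44.8, 33.4 and 36.1 CPM by day. In all 3 the treated libraries lay below the untreated ones, and for H1-1 and H1-5 the lowest was D6 and the nearest to untreated was D9. Their log2 fold changes were −0.81 ± 0.22, −0.75 ± 0.20 and −0.59 ± 0.15, with edgeR adjusted p of 0.0335, 0.0346 and 0.0313. In G1 cells alone the value of H1-3 was 0.015 (adjusted p = 0.985 by edgeR). H1-2 and H1-4 did not pass the test, at 76.9 and 80.4 CPM untreated against 75.4, 63.6 and 49.4 CPM for H1-2, and 61.8 and 59.1 against 69.0, 63.6 and 49.4 CPM for H1-4. H1-4 overlapped between the groups.

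The called H2A genes were H2AC11, at 15.4 and 18.9 CPM untreated and 10.5, 7.08 and 3.13 CPM by day, and H2AC6, at 28.3 and 25.7 CPM untreated and 20.7, 19.5 and 20.01 CPM by day. The treated libraries were below the untreated ones in both, with a further fall by day for H2AC11 and hardly a difference between days for H2AC6. Their log2 fold changes were −1.48 ± 0.39 and −0.57 ± 0.13 (edgeR adjusted p of 0.0327 and 0.0201). H2AC20 was at 63.4 and 68.5 CPM untreated and at 42.2, 35.1 and 10.3 CPM by day, and did not pass the test (log2 fold change −1.33 ± 0.46, adjusted p = 0.0746 by edgeR). H2AW went the other way in CPM, at 43.96 and 44.98 CPM untreated and 61.2, 51.2 and 48.2 CPM by day. Every treated library lay above both untreated ones, and H2AW was not called.

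The seventh call was H4C14, which had 27 and 19 counts untreated and 2, 3 and 6 counts by day. Over the last 300 bases of its transcript, all 31-base words also occur in H4C15, so counts of these H4 genes cannot be assigned to either with certainty. H4C3 and the H1 genes shared no such word with another member.

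**Figure D1:**
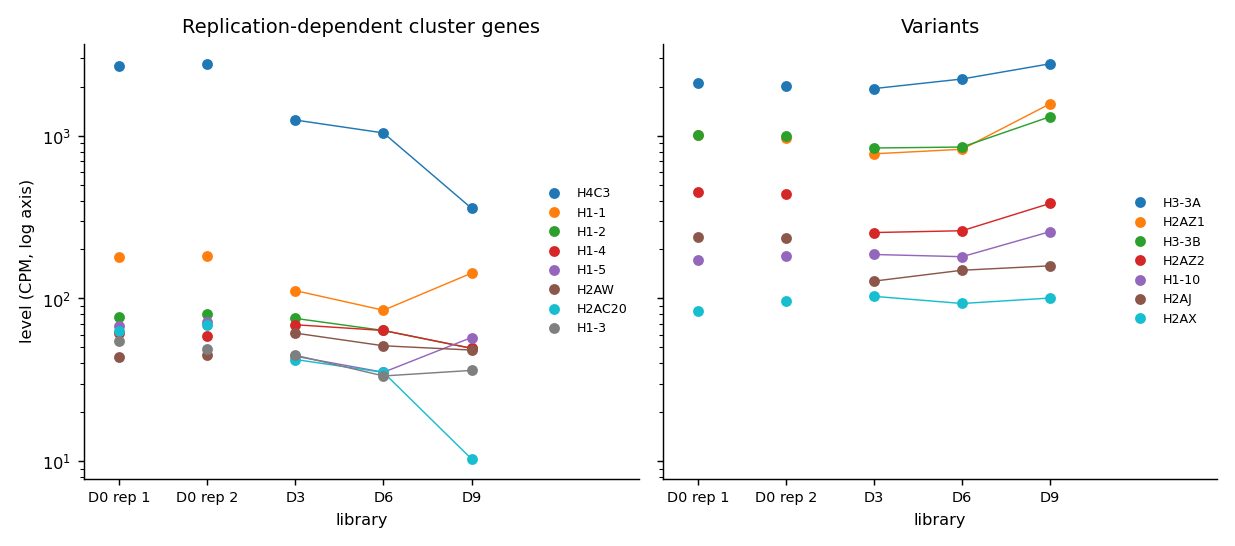
Levels in CPM (log axis) of the 8 most abundant cluster genes (left) and 7 of the variants (right) in each library, with 1 point per library and a line joining the treated days. H4C3 lies at 2701 and 2759 CPM untreated and at 358 CPM at D9, while the H1 genes at D9 lie nearer to their untreated levels and H3-3A, H2AZ1, H3-3B and H1-10 lie above theirs.

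Leaving out 1 library moved the count of called cluster genes strongly. It was 0 without untreated replicate 1, untreated replicate 2 or D6 (with 9, 8 and 12 genes lower at an unadjusted p under 0.05 by edgeR), 12 without D3 and 23 without D9. The cluster median stayed between −1.26 and −0.56 over these 5 fits. Shares of all genes called in these fits are not given, so the swing in calls cannot be read as particular to the cluster genes.

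The next comparison took each day against untreated. These fits take their 1 residual degree of freedom from the D0 pair and assume that a treated library varies as they do, so a call needed a log2 fold change of 1 or more in either direction beside the adjusted p. Among 40 cluster genes, 2 were called lower at D3, where 4.2% of all 12180 genes were, 14 at D6, where 5.77% were, and 28 at D9, where 7.27% were. No cluster gene was called higher at D3, D6 or D9, where 6.28%, 6.73% and 5.08% of all genes were (at an unadjusted p under 0.05 by edgeR, 5, 0 and 0 cluster genes were higher). The cluster medians were −0.36, −0.77 and −1.96 on the log2 scale on D3, D6 and D9, against 0.04, 0.01 and 0.06 over all genes.

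D9 was also set against D3 in the same fit, 1 library against 1, with the spread taken from the D0 pair alone. Of 40 cluster genes, 27 were called lower at D9 than at D3, where 4.15% of all genes were, and 0 were called higher, where 0.993% were (2 at an unadjusted p under 0.05 by edgeR). H4C3 fell by 1.76 on the log2 scale from D3 to D9, H2AC20 by 1.98 and H2AC16 by 2.25.

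**Figure D2:**
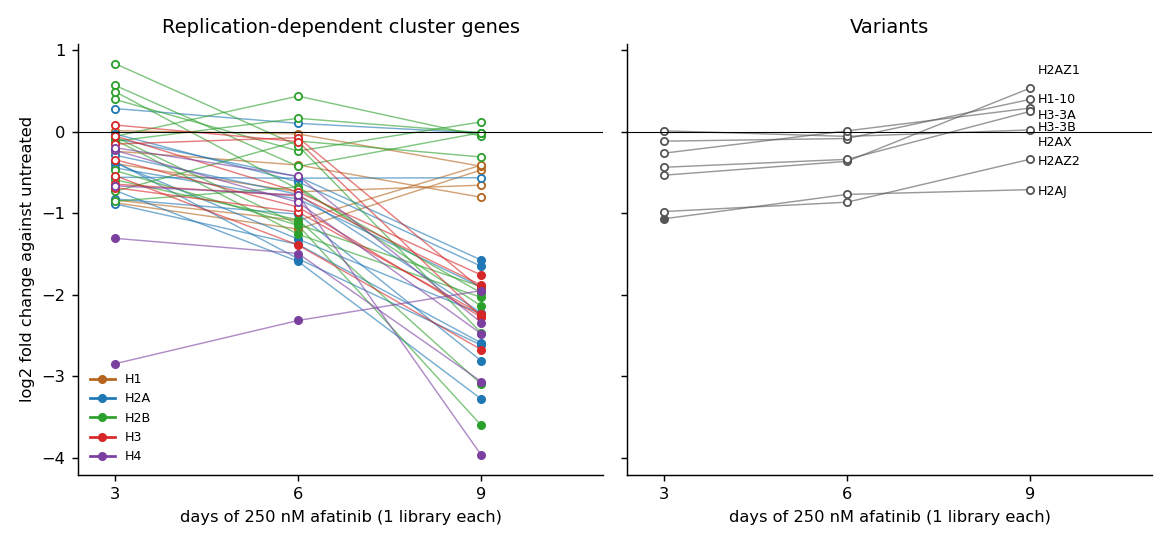
Log2 fold change against untreated (vertical axis) by days of 250 nM afatinib (horizontal axis, 1 library per day) for the 40 cluster genes tested (left, coloured by family) and 7 of the variants (right), with filled points for called values. Most H2A, H2B, H3 and H4 genes drop below −1.5 at D9, the 5 H1 genes end between −0.81 and −0.41, and the variants drawn end between −0.71 and 0.53.

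At D9 the calls were counted by family. All 7 H3 genes and all 5 H4 genes tested were called lower, with medians of −2.24 and −2.48. Of the 11 H2A genes 9 were called, with a median of −2.22, and of the 12 H2B genes 7, with a median of −1.94. Together 28 of 35 core genes were called, with a median of −2.14. Of the 5 H1 genes 0 were called, with a median of −0.47 and a range of −0.81 to −0.41. All 5 were below untreated with an adjusted p under 0.05 by edgeR, and none reached the fold minimum. The difference between the H1 genes and the core genes was not tested.

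Single core genes show the size of the fall at D9. H2AC20 was 7.01-fold lower than untreated (log2 −2.81 ± 0.16) and H4C3 8.36-fold lower (log2 −3.06 ± 0.04). H3C2, a gene for histone H3, was at 34.6 and 44.7 CPM untreated and at 28.0, 21.5 and 9.26 CPM by day (log2 −2.24 ± 0.15 at D9). H3C4 was at 21.6 and 19.5 CPM untreated and at 18.3, 11.6 and 4.65 CPM by day. H2AC16 was at 12.2 and 10.6 CPM untreated and at 9.99, 4.14 and 2.03 CPM by day. In all 3 the D9 library was the lowest, far below both untreated levels, and D3 was the nearest to untreated. The 7 core genes that were not called at D9 were H2AC6, H2AW and the H2B genes H2BC5, H2BC8, H2BC11, H2BC12 and H2BC15, which, other than H2AC6 and H2AW, are named here after their values were seen.

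The variants moved in mixed directions. H3-3A and H3-3B, which encode the same H3.3 protein, were at 2110 and 2026 CPM and at 1015 and 996 CPM untreated. By day H3-3A was at 1950, 2233 and 2771 CPM and H3-3B at 841, 852 and 1310 CPM. Both were highest at D9, with log2 fold changes of 0.29 ± 0.03 and 0.25 ± 0.04 that stayed under the fold minimum. H2AZ1, which encodes H2A.Z.1, was at 1009 and 973 CPM untreated and at 775, 826 and 1573 CPM by day. It was thus below untreated at D3 and D6 and above it at D9 (log2 0.53 ± 0.04), and it was called higher at D9 than at D3 (log2 1.07 ± 0.05). H2AZ2, for H2A.Z.2, was at 448 and 437 CPM untreated and at 254, 261 and 384 CPM by day, below untreated in all 3 treated libraries.

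H2AJ, which encodes a replication-independent H2A, was the variant that passed the test of treatment. It was at 237 and 237 CPM untreated and at 128, 149 and 159 CPM by day (log2 fold change −0.84 ± 0.17, adjusted p = 0.0139 by edgeR). The adjusted p was 0.145 without untreated replicate 1 and 0.153 without untreated replicate 2, and the call held under the other 12 alternatives. It was also the variant called lower at D3, where 4.2% of all genes were, a call not made in G2/M cells or in cells under 10% mitochondrial. With 1 untreated library left out, the fits of single days had no residual degree of freedom and could give no call. No variant was called at D6 or at D9, where 5 were higher and 2 lower at an unadjusted p under 0.05 by edgeR, all under the fold minimum. H1-10 was at 174 and 183 CPM untreated and at 186, 181 and 258 CPM by day. H2AX, which is phosphorylated at DNA breaks, overlapped between groups, at 83.5 and 97.1 CPM against 103, 93.1 and 101 CPM.

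D3 and D6 stood apart in their mitochondrial share, and the cluster genes' values there moved with it. When cells with at least 10% mitochondrial counts were left out, 85 cells of D3, 188 of D6 and 857 of D9 remained, beside 379 and 860 untreated. The cluster median at D3 then turned from −0.36 to 0.23, with 0 genes called lower and 2 higher. With thinned cells it was −0.74, with 11 of 39 called lower, and in S cells −0.64, with 11 of 39 called lower. At D6 it went from −0.77 to −0.19, with 3 genes called lower. At D9 it was −2.12, with 28 called lower, as large as with all cells. The part of mitochondrial share in the D3 and D6 values was not tested. Over treatment as a whole, 3 cluster genes were called lower in these cells, with a median of −0.47. Shares of all genes called are not given for the fits in this paragraph, so the counts cannot be set against a background.

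The second question was how the genes followed the cell cycle. Each cell was given a phase call from S and G2/M gene scores that held no histone gene, after all cells were thinned to 5000 UMIs. The calls are labels from RNA and not measures of DNA content. The untreated libraries had 38.1% and 37.2% of cells called S, and D3, D6 and D9 had 42.0%, 38.0% and 38.4%. The treated mean was 1.83 percentage points higher (p = 0.4, two-sided exact permutation test over libraries, 0.2 being the smallest p that 2 against 3 libraries allow). G1 was called in 18.6% and 20.04% of untreated and 26.7%, 26.8% and 29.6% of treated cells, and G2/M in 43.3% and 42.8% of untreated and 31.3%, 35.2% and 32.05% of treated cells (p = 0.2 for each, two-sided exact permutation test). The groups did not overlap for G1 and G2/M and did for S.

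Counts were then summed per library and phase, and S was compared with G1 in 15 sums with the library as a block. Of 39 cluster genes tested, 31 were called higher in S, where 13.3% of 12018 genes were, and 4 were called lower, where 14.8% were. The cluster median was 1.98 on the log2 scale, against −0.02 over all genes. Of 54 tested genes of the G2/M score, which helped to make the calls, 46 were also higher in S and 1 lower (median 1.28). Cells called S and G1 thus differed in both gene sets, and not in S phase genes alone. For G2/M against G1, 28 cluster genes were called higher, where 13.8% of all genes were, and 4 lower, where 16.8% were.

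All 5 H1 genes tested were higher in S, as were 9 of 11 H2A, 6 of 12 H2B, 7 of 7 H3 and 4 of 4 H4 genes tested. H4C14 was not tested. H4C3 was at 855 and 661 CPM in G1 cells of the untreated libraries and at 3876 and 4350 CPM in their S cells. On D3, D6 and D9 it was at 266, 308 and 67.6 CPM in G1 and at 1322, 1214 and 502 CPM in S. S was above G1 in 5 of 5 libraries, and the S cells of D9 were below the G1 cells of both untreated libraries. The log2 fold change of S against G1 was 2.36 ± 0.14 (edgeR adjusted p = 3.82e-11).

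H1-5 had 11.1, 11.9, 4.04, 7.94 and 5.51 CPM in G1 and 107, 113, 62.9, 46.3 and 91.7 CPM in S, in the order untreated 1 and 2, D3, D6 and D9. H1-1 had 36.0, 34.1, 24.2, 20.999 and 26.3 CPM in G1 and 274, 285, 134, 107 and 216.1 CPM in S, in the same order. In both genes every S value lay above every G1 value, and among the treated libraries D9 was the nearest to untreated in S. The log2 fold changes were 3.35 ± 0.15 for H1-5 and 2.79 ± 0.12 for H1-1. The other large differences among members of at least 5 CPM were those of H3C2 (3.51 ± 0.25), H2AC16 (3.17 ± 0.37), H1-3 (3.09 ± 0.14) and H3C4 (2.97 ± 0.22).

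**Figure D3:**
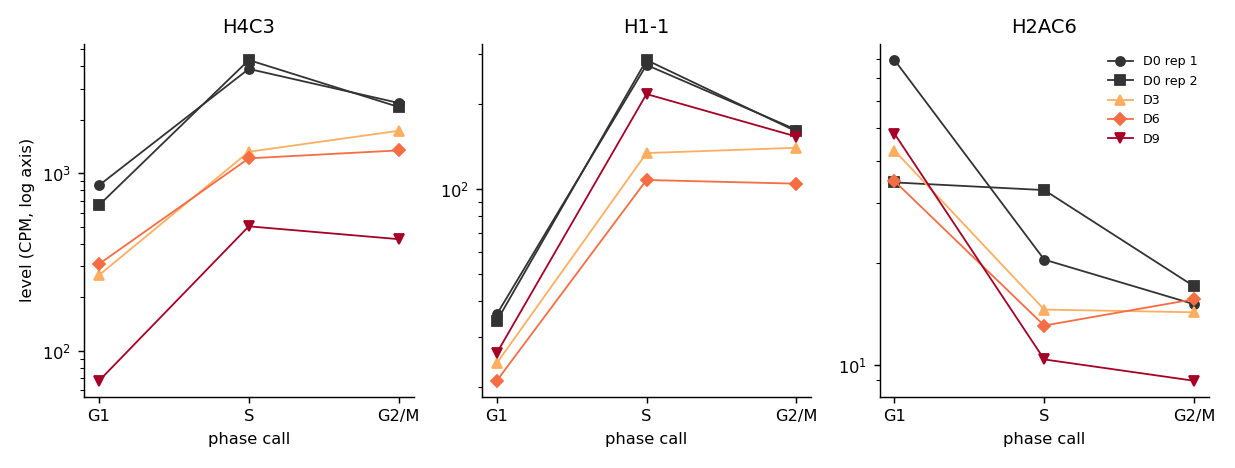
Levels in CPM (log axis, its range differing by panel) of H4C3, H1-1 and H2AC6 in cells called G1, S and G2/M, with a line per library (black for the untreated libraries, yellow to dark red for D3, D6 and D9). H4C3 and H1-1 are lowest in G1 in all 5 libraries, and at D9 H4C3 in S (502 CPM) is far below untreated while H1-1 in S (216.1 CPM) is close to it.

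The 4 cluster genes called lower in S were H2AC6 (−1.44 ± 0.20), H2BC5 (−1.57 ± 0.22), H2BC11 (−1.37 ± 0.24) and H2AW (−1.24 ± 0.13), H2BC5 and H2BC11 being named after their values were seen. H2AC6 was at 79.2, 34.5, 42.8, 34.8 and 48.04 CPM in G1 and at 20.4, 32.8, 14.6, 13.1 and 10.38 CPM in S, in the order untreated 1 and 2, D3, D6 and D9. H2AW was at 83.4, 68.6, 124, 90.7 and 97.0 CPM in G1 and at 37.0, 48.4, 35.0, 46.6 and 30.9 CPM in S. G1 was above S in 5 of 5 libraries for both, with the smallest gap for H2AC6 in untreated replicate 2. All 4 are among the 9 cluster genes with an annotated transcript that runs past the stem-loop. Of those 9, 3 were higher in S and 4 lower, with a median of 0.51. Of the 30 genes tested without such a transcript, 28 were higher and 0 lower, with a median of 2.11. H4C14 also has no such transcript but had too few counts to be tested for phase. Its ratio of S to G1 was 0.226 and 0.508 untreated and 0.572, 0 and 0.351 on D3, D6 and D9, so it lay lower in S throughout. At D9 against untreated, 4 of the 9 and 24 of 31 of the others were called lower, with medians of −0.57 and −2.22. This split was made after the values were seen and is given as a description.

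**Figure D4:**
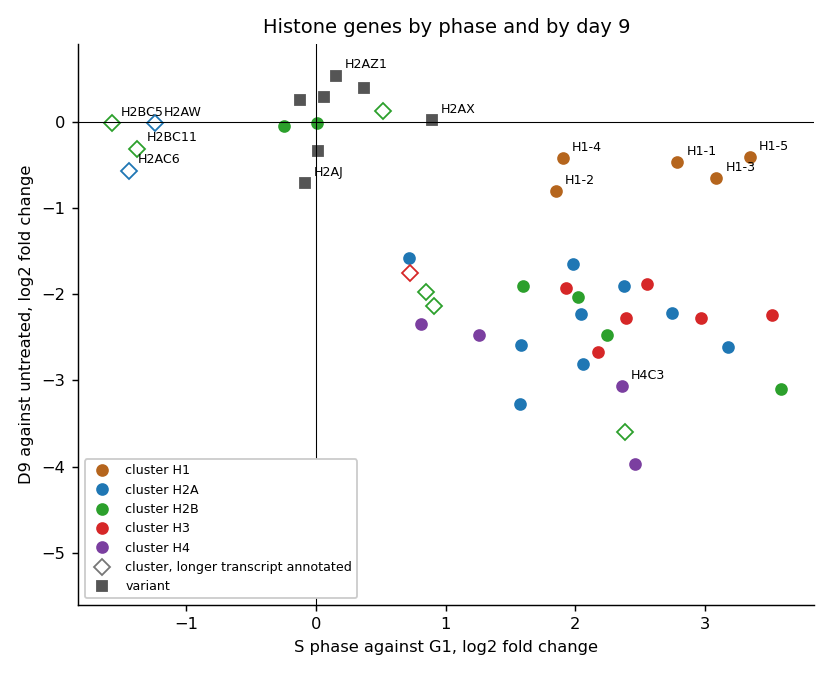
Log2 fold change of S against G1 (horizontal axis) and of D9 against untreated (vertical axis) for the histone genes tested in both, 7 variants among them, with circles for cluster genes, open diamonds for cluster genes with an annotated transcript past the stem-loop and squares for variants. The core genes called higher in S lie between −3.96 and −1.58 on the vertical axis, the 5 H1 genes lie between −0.81 and −0.41, and most variants lie near 0 on both axes.

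Most variants differed little between G1 and S. Of 8, 2 were called higher in S, where 13.3% of all genes were, namely H2AX (0.90 ± 0.07) and H1-10 (0.37 ± 0.05). The 1 called lower was H3-3B (−0.12 ± 0.04, edgeR adjusted p = 0.0183). As 14.8% of all genes were called lower, 1 of 8 is near that share. H2AX had 44.9, 51.6, 47.5, 48.4 and 49.1 CPM in G1 and 75.5, 98.7, 98.9, 89.5 and 99.5 CPM in S, in the order untreated 1 and 2, D3, D6 and D9. Its S values lay above all G1 values, and it was the variant with a stem-loop after its stop codon. In G2/M against G1, 7 of the 8 variants were called higher, where 13.8% of all genes were. H2AX again differed by the most (1.33 ± 0.07), and H2AJ was not called (0.07 ± 0.05).

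The difference from untreated was also measured among cells of 1 phase call. In S cells 13 of 39 cluster genes were called lower in treated against untreated libraries, where 7.41% of all genes were, with a median of −1.11. In G1 cells 7 of 27 were, where 7.51% of all genes were, with a median of −0.68. For D9 alone, 14 of 31 cluster genes were called lower in G1 cells (7.83% of all genes), 29 of 39 in S cells (7.57%) and 28 of 39 in G2/M cells (8.08%). Their medians were −1.18, −2.27 and −1.68. In S cells at D9 all 39 cluster genes lay below untreated, and the variants' median was 0.31. At D3 the cluster median was −0.62 in G1 and 0.16 in G2/M cells. Calls in the other direction were 1 cluster gene higher at D9 in G1 cells and 1 at D3 in G2/M cells. The shares of all genes called higher are not given for these fits.

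Counting cells gave a picture of how H4C3 was spread. After thinning, 39.7% of the cells of untreated replicate 1 (95% exact interval 35.3% to 44.3%) and 38.4% of replicate 2 (35.4% to 41.4%) held at least 10 UMIs of H4C3, a limit chosen after the values were seen. At D3 11.3% did (8.58% to 14.5%), at D6 12.8% (10.8% to 15.2%) and at D9 0.702% (0.304% to 1.38%). The untreated libraries did not differ beyond these intervals, nor did D3 and D6, and D9 was below all others. The intervals cover counting error only, and cells of a library are not replicates.

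Among cells called S, the median was 13 and 18 thinned UMIs of H4C3 per cell in the untreated pair and 1, 1 and 2 on D3, D6 and D9. The 90th percentile of S cells was 37 and 43 UMIs untreated and 13, 12 and 6 UMIs by day. The upper range was lowest at D9, while the median of D9 was no lower than that of D3 and D6. S cells of D3 and D6 had median mitochondrial shares of 20.3% and 20.5%, against 7.05% and 7.65% untreated and 7.97% at D9. Over all cells of a library, log-scaled H4C3 correlated with the S score at r = 0.527 and 0.571 untreated and 0.155, 0.220 and 0.404 by day. S calls at D3 and D6 may thus not mark the same cells, and the part of either in the H4C3 values was not tested. Of the S cells, 57.1% and 59.5% reached 10 UMIs untreated and 12.9%, 14.2% and 0.686% on D3, D6 and D9. Of the cells called G1, 6.74% and 6.57% did untreated, 0.781% and 1.19% at D3 and D6, and at D9 0 of 337 cells, for which 3 counts of the total allow a share of up to 0.890%. Without thinning, S cells held on average 176 and 109 UMIs of H4C3 untreated and 37.0, 18.7 and 10.398 UMIs on D3, D6 and D9, with median depths of 44430.5, 23858, 20218, 12422.5 and 21289 UMIs per cell.

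**Figure D5:**
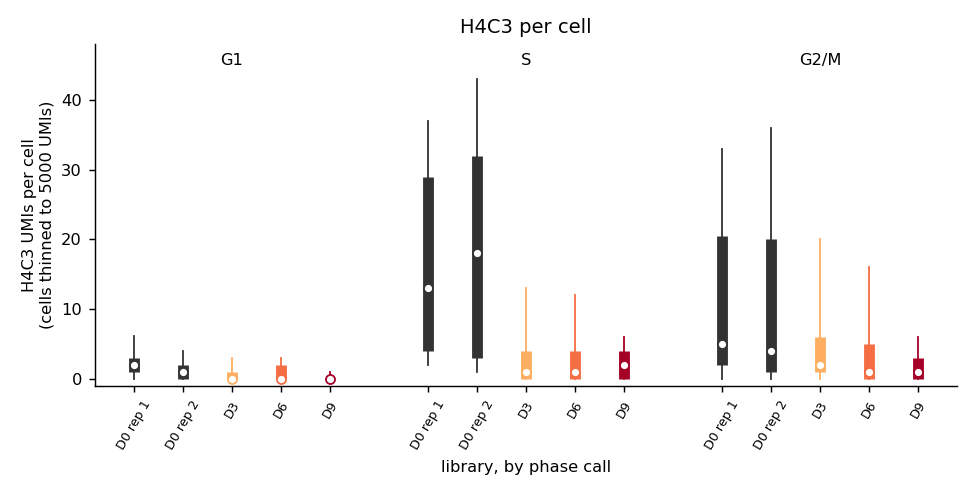
UMIs of H4C3 per cell after thinning to 5000 UMIs, by phase call and library, with the median (open circle), the 25th to 75th percentile (thick bar) and the 10th to 90th percentile (thin line). The S cells of the untreated libraries have medians of 13 and 18 UMIs and those of D3, D6 and D9 medians of 1, 1 and 2 UMIs. The S cells of D3 and D6 also had higher median mitochondrial shares (20.3% and 20.5%) than those of the untreated libraries and D9 (7.05% to 7.97%).

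The size of the S phase difference itself was compared between treated and untreated libraries. Of 39 cluster genes, 1 was called lower, H2BC5, where 0.325% of all genes were called lower and 1.95% higher, and 0 were higher (0 also at an unadjusted p under 0.05 by edgeR). H2BC5 was at 26.4 and 19.6 CPM in G1 and 12.6 and 11.4 CPM in S untreated. On D3, D6 and D9 it was at 20.5, 28.2 and 31.03 CPM in G1 and at 8.17, 6.35 and 4.75 CPM in S. S was below G1 throughout, and further below in the 3 treated libraries (difference of log2 fold changes −1.16 ± 0.29, edgeR adjusted p = 0.0201). Of 11 alternatives 5 kept this call, and leaving out untreated replicate 1, untreated replicate 2, D6 or D9, thinning (adjusted p = 0.932) or a score minimum of 0.1 ended it, the highest p with 1 library left out being 0.285. Of the variants, H2AZ1 was called. Its ratio of S to G1 was 1.04 and 0.996 untreated and 1.19, 1.17 and 1.33 on D3, D6 and D9, with no overlap (difference 0.32 ± 0.09, edgeR adjusted p = 0.0371). This call was kept under 5 of 11 alternatives and ended without untreated replicate 1, untreated replicate 2, D6 or D9, with thinned cells and with DESeq2 size factors, with an adjusted p of up to 0.596. For H4C3 the ratio was 4.53 and 6.58 untreated and 4.96, 3.94 and 7.43 by day, and the groups overlapped.

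Genes that work with histones were counted beside them. Of 18 tested genes for histone mRNA synthesis and processing, 3 were called lower under treatment, where 10.1% of all genes were, and 0 higher, where 13.1% were, with a median of −0.26. They were CCNE1, the cyclin E1 gene (−0.65 ± 0.18), ERI1, a nuclease of the histone mRNA stem-loop (−0.54 ± 0.13), and CPSF3, the nuclease that cuts histone pre-mRNAs (−0.51 ± 0.14). At D9 1 was called lower, where 7.27% of all genes were, namely UPF1, a helicase of histone mRNA decay, at 62.6 and 70.7 CPM untreated and 61.8, 55.5 and 33.7 CPM by day. The phase scores hold 10 of the genes in the 4 lists counted here, which helped to make the phase calls and are left out of the S counts (SLBP, CASP8AP2 and CCNE2 here). In S against G1, 7 of the other 15 were higher, where 13.3% of all genes were, and 1 lower, where 14.8% were, led by the transcription factor gene E2F1 (1.75 ± 0.11), LSM11 of the U7 particle (1.38 ± 0.19), CDK2 (1.30 ± 0.14) and ERI1 (1.22 ± 0.12). SLBP was at 98.0 and 105 CPM untreated and at 87.7, 88.4 and 107 CPM by day, and its groups overlapped.

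Of 26 tested histone chaperones, 1 was higher and 1 lower under treatment, where 13.1% and 10.1% of all genes were, UBN2 (0.77 ± 0.15) of the H3.3 chaperone HIRA complex and NAP1L4 (−0.64 ± 0.14), an H2A-H2B chaperone. In S, without the score genes HJURP, ANP32E, CHAF1B, MCM2 and NASP, 7 of 21 were higher and 3 lower, where 13.3% and 14.8% of all genes were, led by ASF1B (2.25 ± 0.17), TONSL (1.96 ± 0.11) and CHAF1A (1.96 ± 0.11). Of 3 tested histones outside the symbol rule, with a median of −0.15 under treatment, 1 of the 2 outside the scores was higher in S, MACROH2A1 (0.14 ± 0.05), CENPA being a score gene. Of 10 non-histone HMG proteins, 0 were higher and 1 was lower under treatment, HMGB3 (−0.54 ± 0.16), where 13.1% and 10.1% of all genes were. In S, of the 9 outside the scores (HMGB2 is in them), 0 were higher and 1 was lower, HMGN4 (−0.27 ± 0.07), where 13.3% and 14.8% were.

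Over the 15 sums of library and phase, and among 10414 genes of at least 5 CPM on average, the genes whose log2 level was most like the summed cluster genes were H4C3 (Pearson r = 0.984), H3C8 (0.967) and RFC3 (0.965), which encodes a subunit of the replication clamp loader. H4C3 and H3C8 are part of the sum, the sums of 1 library share its depth, and the values are given as a description.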

How the data were processed

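Single-cell RNA-seq was measured in 5 libraries, grouped by the labels. The submitters' processing notes name Cell Ranger 6.1.2 and the GRCh38 build. The deposited matrix holds expected counts, UMI counts that the authors adjusted for batch with ComBat-seq after filtering cells, so they are not raw. All values were whole. The other deposited columns hold cell names, gene identifiers and symbols.

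Counts were summed per library, or per library and phase, and tested with edgeR 4.0.16 (TMM, filterByExpr, quasi-likelihood, Benjamini-Hochberg). Errors are SE from the fit. Total counts were 14517579 to 28148379 per library. Phases came from scanpy 1.11.5 scores on cells thinned to 5000 UMIs, the smallest cell having 5124. The scripts were tested on simulated counts: for treatment, 82% of genes changed by a log2 fold of 1 and 100% of those changed by 2 were recovered.

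Values per library are given for the 8 most abundant members of each class, every member called under treatment and the 6 largest S phase differences of each class among called members of at least 5 CPM. From each other list, up to 4 called genes are named, for S only those outside the phase scores. The values of 1 member are not reported here, though it is in the counts. Members, lists and rules were chosen with earlier results of these data known. Alternatives included DESeq2 1.42.0, limma 3.58.1, other scaling and subsets of cells. Sequences came from RefSeq promoters and the GRCh38 genome with GENCODE 44, while the study counted on release 32. No doublet caller was run, since the authors had removed doublets before deposit.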

Additional observations from a re-analysis of the deposited data

Results flagged for a closer look

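The S phase effect differed between treated and untreated libraries for H2BC5 (difference of log2 fold changes −1.16) and for H2AZ1 (0.32), by a test of the interaction over 39 cluster genes and 8 variants among all genes tested. Each call was kept under 5 of 11 alternatives, and both were lost with either untreated library, D6 or D9 left out. Among the genes named by rule, the D9 effect differed from the D3 effect, by a contrast in the day fit, for H4C3 (−1.76), H2AC16 (−2.25), H2AC20 (−1.98), H3C4 (−1.93), H2AC11 (−1.70), H3C2 (−1.55) and H2AZ1 (1.07). These day contrasts compare 1 library with 1 library and take their spread from the untreated libraries. No group held 4 or more samples, so no sample was tested for lying apart from its group.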

How the results depend on the processing

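The count of cluster genes lower under treatment (7) was 13 with DESeq2, 13 in S cells, 14 with thinned cells, 15 with per-cell means in limma and 3 in cells under 10% mitochondrial, and ran from 0 to 23 with 1 library left out. At D3 the cluster median (−0.36) turned to 0.16 in G2/M cells and to 0.23 in cells under 10% mitochondrial. It went further down with thinned cells (−0.74), in S cells (−0.64) and in G1 cells (−0.62). At D6 the lower cluster genes (14) were 5 in G1 cells, 6 in G2/M cells and 3 in cells under 10% mitochondrial, where the variants' median turned to 0.062. At D9 the lower cluster genes (28) were 14 of 31 tested in G1 cells, with a median of −1.18. The reason for the smaller values in G1 cells was not tested. The cluster genes higher in S (31) of 39 tested were 16 of 20 with thinned cells, which hold fewer counts. For most alternatives the share of all genes called is not given, so their counts have no background beside them. The treatment value of H1-3 turned to 0.015 (adjusted p = 0.985) in G1 cells. The subsets of 1 phase for the days, and D9 against D3, were chosen after seeing the data. Of 1183 values recomputed, 1034 were labelled unchanged. The label was given for keeping the direction and side of the threshold or for staying within the spread. It was also given to counts of similar size, to uncalled genes whose direction turned and to genes in single-day fits that gave no p-value. No paired analysis was possible because the treated days have 1 library each, so the groups share fewer than 2 replicate numbers. Depth limits the low genes, such as H4C14 and H1-6.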
